A study of Mus musculus with 2 samples.

Results

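Retnla, Chi3l3, Mgl2, Ccl24 and Il4ra are 5 genes of the alternative activation program of macrophages. They were selected on their measured levels in the ISO and control libraries described here, as genes of one program whose levels lay in opposite directions, so every difference between the libraries below is a description and none was tested. All 5 had counts in both libraries, among 22780 genes detected in the control library and 21523 in the ISO library.

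The study examined cardiac immune cells in a mouse model of takotsubo syndrome (TTS), a stress-induced cardiomyopathy, set off by a high dose of isoproterenol (ISO), an agonist of beta-adrenergic receptors. Wild-type female C57BL6 mice received 200 mg/kg ISO intraperitoneally and hearts were taken after 24 hours, while control mice received vehicle. The labels give the ISO protocol for both samples and no age, so the control library was identified by its title. Live CD45+ cells were sorted from digested hearts, cells of 3 hearts were pooled per group, 15000 cells were loaded and 1 library of 3′ ends with unique molecular identifiers (UMIs, 1 per captured RNA molecule) was made per group. With 1 library per group, animals within a group could not be told apart, a group difference could not be told apart from a difference between libraries, and no test was possible.

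Interleukin-4 and interleukin-13, made by group 2 innate lymphoid cells (ILC2s), T helper cells and basophils, bind receptors that contain the interleukin-4 receptor alpha chain encoded by Il4ra, and the transcription factor STAT6 then switches on a set of macrophage genes. Retnla (RELM-alpha, also Fizz1) encodes a secreted cysteine-rich protein, Chi3l3 (Ym1, now Chil3) a secreted chitinase-like lectin without chitinase activity, Mgl2 (CD301b) a galactose-binding C-type lectin on the cell surface, and Ccl24 (eotaxin-2) a chemokine that attracts eosinophils through CCR3. These genes are widely used together as markers of alternatively activated macrophages, including those of the heart, and Chi3l3 is also known in bone marrow monocyte and neutrophil progenitors.

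The control library held 47382455 UMIs in 5927 barcodes and the ISO library 58495112 UMIs in 5514 barcodes. Filters on genes and mitochondrial UMIs kept 5641 control barcodes with a median of 4790 UMIs and 5437 ISO barcodes with a median of 8537 UMIs, 11078 in all. A UMI of Ptprc, the gene of CD45, was seen in 91.0% of kept control barcodes and 88.8% of kept ISO barcodes. The 2 libraries shared 15 barcode sequences, and leaving these out turned the sign of none of the ratios of the 5 genes in macrophages, classical monocytes, intermediate barcodes, dendritic cells and neutrophils.

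Barcodes were assigned to classes by the summed level of marker genes, none of which was one of the 5 genes. The macrophage gate held 1015 control and 1591 ISO barcodes, the classical monocyte gate 74 and 1095, the nonclassical monocyte gate 36 and 8, the dendritic cell gate 106 and 364, and the neutrophil gate 122 and 183. An intermediate class, with monocyte markers and at least as many macrophage transcripts but outside the macrophage gate, held 15 control and 757 ISO barcodes. Its barcodes lay below the macrophage limit or had under 2 times as many macrophage as monocyte transcripts. Barcodes that carried markers of 2 lineages were set apart, and made up 24.8% of kept control barcodes and 15.6% of kept ISO barcodes. These classes are ranges on a marker scale and not separate types: 14 of 1015 control and 141 of 1591 ISO macrophage barcodes lay less than 25% above their limit, as did 9 of 106 and 56 of 364 dendritic cell barcodes.

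The gates were checked against their whole marker lists. In macrophage barcodes all 10 macrophage markers were detected in both libraries, at a summed 28702 counts per 1000000 UMIs (CPM) in control and 14244 CPM in ISO, with Apoe the most abundant. The 8 classical monocyte markers in the same barcodes summed to 430 CPM in control and 2288 CPM in ISO, with Ccr2 the most abundant, and their median over barcodes was 0 CPM in control and 2110 CPM in ISO. Macrophage barcodes of the ISO library thus carried more monocyte and fewer macrophage transcripts, and the part of this in the values below was not tested. Of the 9 neutrophil markers, Ly6g was at 0 UMIs in the neutrophil barcodes of both libraries and the other 8 were detected. In dendritic cell barcodes the 11 dendritic cell markers summed to 1696 CPM in control and 1341 CPM in ISO. Classical monocyte markers summed to more there, 2118 and 2689 CPM, with medians over barcodes of 1288 and 2061 CPM. Nonclassical monocyte barcodes also held more classical monocyte markers (4584 and 2330 CPM) than markers of their own (3037 and 1801 CPM).

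**Figure D1:**
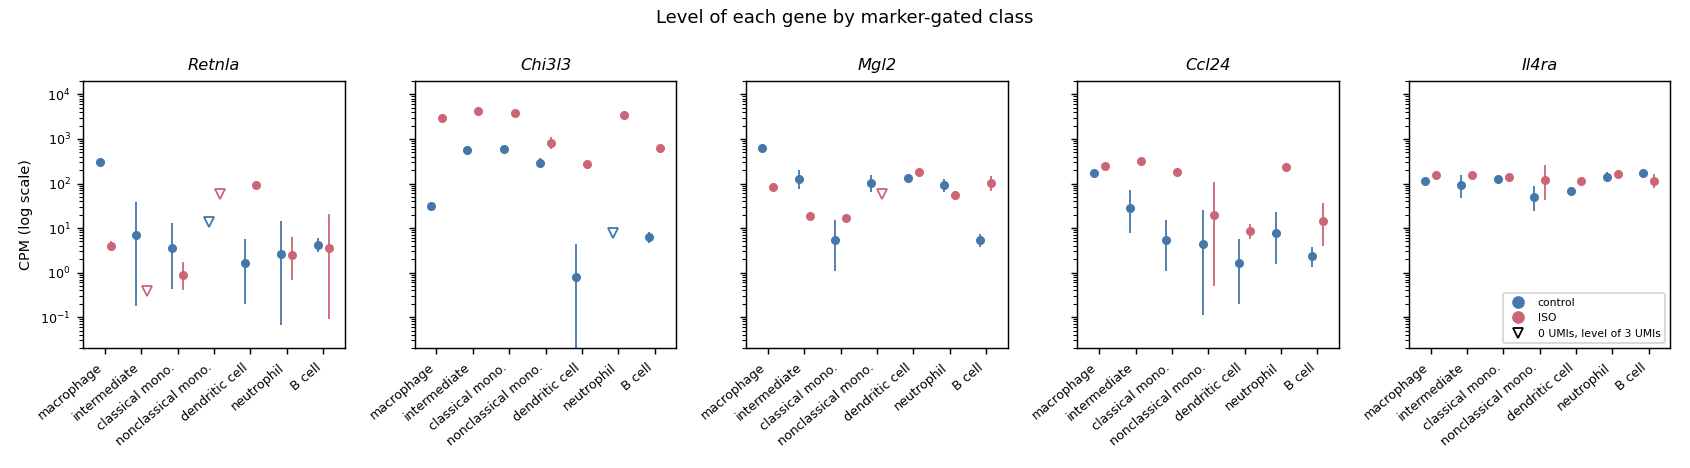
Level of each gene in CPM on a log axis by marker-gated class, for the control and the ISO library. Bars are exact 95% Poisson intervals and open triangles mark 0 UMIs, drawn at the level of 3 UMIs, and in macrophages Retnla was 306 CPM in control and 4.06 CPM in ISO, while Chi3l3 was 30.8 CPM and 2903 CPM.

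The ligands of the program were rare in these cells. Il4 had 121 UMIs in 85 of 5641 control barcodes and 33 UMIs in 29 of 5437 ISO barcodes. Il13 had 127 UMIs in 34 control barcodes and 45 UMIs in 9 ISO barcodes. ILC2 barcodes had the most Il13 UMIs of any single-lineage class in control, with 30 UMIs of Il4 and 78 of Il13 in 183 barcodes, against 5 and 4 in 105 ILC2 barcodes of the ISO library. In classical monocyte barcodes of the control library Il4 had 13 UMIs in 4 of 74 barcodes, and there all 4 basophil or mast cell markers were detected at a summed 174 CPM, with Mcpt8 the most abundant, while in ISO all 4 were at 0. The part of these markers in the Il4 value was not tested.

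Il4ra, the receptor chain, differed less than 2-fold in macrophages, classical monocytes, dendritic cells and neutrophils. In macrophages it was 112 CPM (exact 95% Poisson interval 105 to 120, 928 UMIs) in control and 156 CPM (150 to 162, 2571 UMIs) in ISO, a log2 ratio of 0.47 (95% counting interval 0.36 to 0.58). Such intervals cover counting error only, not differences between animals or libraries. In classical monocytes Il4ra was 125 CPM (97.7 to 158) in control against 144 CPM (136 to 151) in ISO, in dendritic cells 69.1 CPM (55.3 to 85.4) and 112 CPM (101 to 124), and in neutrophils 142 CPM (107 to 185) and 163 CPM (144 to 184). The ISO level was the higher in these 4 classes, with overlapping intervals in classical monocytes and neutrophils. With cells thinned to 1000 UMIs it was the lower in classical monocytes (-0.25) and dendritic cells (-0.53), and with median ratio scaling in neutrophils (-0.02). In nonclassical monocytes Il4ra was 49.3 CPM (24.6 to 88.3, 11 UMIs) in control and 117 CPM (43.1 to 256, 6 UMIs) in ISO. This log2 ratio was 1.30 (-0.47 to 2.81), past 2-fold but from few UMIs. T cell barcodes had the highest control level at 218 CPM (191 to 248), followed by B cell barcodes at 171 CPM (162 to 181), so Il4ra was not restricted to myeloid classes.

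Retnla, the resistin-like effector, was lower in ISO macrophages. It was 306 CPM (294 to 318, 2528 UMIs) in control macrophages and 4.06 CPM (3.14 to 5.15, 67 UMIs) in ISO macrophages, a log2 ratio of -6.23 (-6.61 to -5.89). The control level rested on few cells. A UMI of Retnla was seen in 80 of 1015 control macrophages and in 14 of 1591 ISO macrophages, and 1 control barcode with 861 Retnla UMIs among its 12701 UMIs held 34.1% of the macrophage UMIs of the gene. Without the barcode with the most Retnla UMIs in each library the levels were 202 CPM in control and 2.67 CPM in ISO, and the log2 ratio was -6.23 again. Other settings, given at the end, ran from -9.52 with the B cell level subtracted to -4.73 with barcodes of 2 lineages kept.

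After each cell was thinned to 1000 UMIs, Retnla was seen in 4.33% of control macrophages (exact binomial 95% interval 3.17 to 5.78) and in 0.314% of ISO macrophages (0.102 to 0.732). Unthinned, with median depths of 6506 UMIs in control and 8363 UMIs in ISO, they were 7.88% and 0.88%. In B cell barcodes, which should lack the gene, the thinned share was 0.514% (0.247 to 0.943) in control, at a median depth of 3234 UMIs, and 0 of 51 in ISO, which allows a share of up to 5.88%, at a median depth of 4089 UMIs. The control macrophage share lay above the share of control B cell barcodes. The 51 ISO B cell barcodes were too few to set a background for the ISO macrophage share, which lay below their limit. Of the 67 Retnla UMIs in ISO macrophages 23 came from the top barcode.

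Retnla was near 0 in the classical monocytes and neutrophils of both libraries. In classical monocytes it had 2 UMIs in control and 9 in ISO, and in neutrophils 1 and 4 UMIs. In dendritic cells it was 1.61 CPM (0.195 to 5.81, 2 UMIs) in control and 92.7 CPM (82.5 to 104, 299 UMIs) in ISO, a log2 ratio of 5.53 (3.98 to 8.90). Of those 299 ISO UMIs 298 came from 1 barcode. That barcode held 30106 UMIs, lay in the migratory Ccr7 dendritic cell subset with 29 UMIs of Ccr7 and 7 of Fscn1, carried 134 UMIs of Chi3l3 and had 4152 CPM of classical monocyte markers, 2358 CPM of macrophage markers and 1229 CPM of dendritic cell markers. Without the barcode with the most UMIs in each library the dendritic cell levels were 0.81 CPM in control and 0.31 CPM in ISO, 1 UMI each, and with the 5% of barcodes of highest depth left out the log2 ratio was -1.44.

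Chi3l3, the chitinase-like effector, was higher in the ISO library in every myeloid class. In macrophages it was 30.8 CPM (27.1 to 34.8, 254 UMIs) in control and 2903 CPM (2877 to 2929, 47942 UMIs) in ISO, a log2 ratio of 6.56 (6.38 to 6.74). Of the control UMIs 91 came from the top barcode and 64 from the next. Without the top barcode of each library the control level was 19.8 CPM and the ratio 7.19. In classical monocytes Chi3l3 was 597 CPM (535 to 664, 339 UMIs) in control and 3815 CPM (3777 to 3853, 38482 UMIs) in ISO, a log2 ratio of 2.67 (2.52 to 2.83). Classical monocyte markers in these barcodes summed to 7123 CPM in control and 5114 CPM in ISO, and neutrophil markers to 169 and 740 CPM. The part of these in the value was not tested. In nonclassical monocytes, with 8 ISO barcodes, Chi3l3 was 292 CPM (225 to 372) and 822 CPM (593 to 1112). Of the 42 ISO UMIs there 21 came from the top barcode and 16 from the next. Without the top barcode of each library these levels were 200 and 466 CPM. The 8 ISO barcodes also held dendritic cell markers at 1253 CPM, Ccr7 the most abundant, and natural killer cell markers at 450 CPM, Gzma the most abundant. In control these were at 139 and 22.4 CPM, and their part in the value was not tested. Among control classes monocytes stood highest, with classical and intermediate barcodes (556 CPM, 441 to 693) overlapping, then nonclassical monocytes, then macrophages. In the ISO library intermediate barcodes were highest at 4327 CPM (4281 to 4373), above classical monocytes, neutrophils and macrophages in that order, none of whose intervals overlapped.

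The number of cells with Chi3l3 differed as well. A UMI was seen in 20 of 1015 control and 1182 of 1591 ISO macrophages, and after thinning in 0.591% (0.217 to 1.28) and 58.3% (55.8 to 60.7). In classical monocytes the thinned shares were 20.3% (11.8 to 31.2) in control and 55.6% (52.6 to 58.6) in ISO, and unthinned 31.1% and 68.3% at median depths of 8144 and 8281 UMIs. B cell barcodes gave a thinned share of 0.0514% in control and 15.7% (7.02 to 28.6, 8 of 51) in ISO, at a level of 627 CPM in ISO, and natural killer cell barcodes of the ISO library 34.1 CPM (11.1 to 79.6). Of the 172 ISO UMIs in B cell barcodes 66 and 47 came from 2 barcodes. These barcodes also held myeloid markers, the 8 classical monocyte markers at 838 CPM in control and 3423 CPM in ISO, Plac8 the most abundant in both, and the 10 macrophage markers at 490 and 1174 CPM, Apoe the most abundant in both and Ms4a7 at 0 in ISO. The 11 dendritic cell markers were at 1014 CPM, Ccr7 the most abundant, and 1345 CPM, Siglech the most abundant and Xcr1 at 0, and the part of all these in the B cell value was not tested. In T cell barcodes of the ISO library 24 of 60 had a UMI after thinning (95% interval 27.6% to 53.5%). These barcodes held macrophage markers at 1270 CPM and classical monocyte markers at 2189 CPM, against 296 and 614 CPM in control. The part of these markers in the T cell value was not tested. The ISO macrophage share lay above both, the ISO monocyte share lay above that of B cells and overlapped that of T cells, and the ISO dendritic cell share of 6.32% (4.05 to 9.33) lay at or below that of B cells. With the B cell level of the same library subtracted, the log2 ratio in classical monocytes was 2.43.

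In dendritic cells Chi3l3 was 0.804 CPM (0.0204 to 4.48, 1 UMI) in control and 273 CPM (255 to 291, 879 UMIs in 65 of 364 barcodes) in ISO, a log2 ratio of 7.82 (5.92 to 13.71). The ISO barcode with the most of these held 134 UMIs, as did the next. Without the top barcode of each library the ISO level was 233 CPM. The ISO level was below that of B cell barcodes in the same library. The 10 macrophage markers in dendritic cell barcodes summed to 355 CPM in control, where Mertk was at 0, and 609 CPM in ISO, Cd68 the most abundant in both, and the 8 classical monocyte markers to 2118 and 2689 CPM, Plac8 the most abundant in both. Their part in the Chi3l3 value was not tested.

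Mgl2, the surface lectin, was lower in ISO macrophages and differed little in dendritic cells. In macrophages it was 634 CPM (617 to 652, 5235 UMIs) in control and 82.2 CPM (77.9 to 86.7, 1357 UMIs) in ISO, a log2 ratio of -2.95 (-3.04 to -2.86). Unlike Retnla it was widespread in control macrophages, with a UMI in 806 of 1015 control and 320 of 1591 ISO barcodes, and thinned shares of 39.3% (36.3 to 42.4) and 5.66% (4.57 to 6.91) against 0.411% of control and 0 of 51 ISO B cell barcodes. Before thinning the macrophage shares were 79.4% and 20.1%. In ISO B cell barcodes 28 UMIs in 2 barcodes gave 102 CPM (67.8 to 148), so the summed level of that class was no background for Mgl2.

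In dendritic cells Mgl2 was 133 CPM (113 to 155) in control against 179 CPM (165 to 194) in ISO, a log2 ratio of 0.43 (0.18 to 0.69). Type 2 dendritic cells, gated on Cd209a, had 324 CPM (273 to 382) in 39 control barcodes and 224 CPM (200 to 249) in 165 ISO barcodes, so the higher ISO level of the whole class did not hold within the subset where most of its UMIs lay. In classical monocytes Mgl2 had 3 UMIs in control, 5.29 CPM (1.09 to 15.4), and 167 in ISO, 16.6 CPM (14.1 to 19.3), a log2 ratio of 1.43 (0.08 to 3.94) that was -1.88 with the gate limits doubled. In neutrophils it was 90.5 CPM (63.1 to 126) in control against 54.1 CPM (43.4 to 66.7) in ISO, a log2 ratio of -0.75 (-1.32 to -0.13), but 26 of the 35 control UMIs came from 1 barcode, and without the barcode with the most UMIs in each library the ratio was 0.54. Macrophages had the highest Mgl2 level among the control classes, and dendritic cells among the ISO classes, among the 6 myeloid classes.

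Ccl24, the eosinophil chemokine, differed little in macrophages as a whole and was higher in ISO monocytes. In macrophages it was 176 CPM (167 to 185, 1453 UMIs) in control and 246 CPM (239 to 254, 4063 UMIs) in ISO, a log2 ratio of 0.48 (0.40 to 0.57). The thinned share of macrophages with a UMI was 13.1% (11.1 to 15.3) in control and 10.8% (9.33 to 12.4) in ISO, unthinned 35.2% and 31.9%, against 0.257% of control and 0 of 51 ISO B cell barcodes. The share and the level lay in opposite directions, so no order was read from the share, and 1 ISO barcode held up to 134 UMIs against 42 in control. In classical monocytes Ccl24 had 3 UMIs in control, 5.29 CPM (1.09 to 15.4), and 1870 UMIs in ISO, 185 CPM (177 to 194), a log2 ratio of 4.91 (3.58 to 7.41). The thinned ISO monocyte share was 5.94% (4.61 to 7.50), within the range of ISO T cell barcodes (3 of 60, 95% interval 1.04% to 13.9%), which also had 225 CPM (188 to 267), 57 of their 133 UMIs from 1 barcode. ISO B cell barcodes had 14.6 CPM (3.97 to 37.3, 4 UMIs), so the monocyte level lay above that of B cells and not above that of T cells, whose macrophage markers are given above, and the part of RNA from other cells was not tested. Intermediate barcodes had 317 CPM (305 to 330) in ISO, the highest of the 6 myeloid classes, and 4 UMIs in control. In dendritic cells Ccl24 had 2 UMIs in control and 28 in ISO, 8.68 CPM (5.77 to 12.5), a log2 ratio of 2.14 (0.45 to 5.55) with a thinned ISO share of 1.10% (0.3 to 2.79), within the range allowed in B cell barcodes.

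In macrophages 1 of the 5 genes was past 2-fold higher in ISO (Chi3l3) and 2 were past 2-fold lower (Retnla and Mgl2). Of 12594 genes with at least 20 UMIs in macrophages, 7.77% were past 2-fold higher and 20.3% past 2-fold lower. In classical monocytes Chi3l3, Ccl24 and Mgl2 were past 2-fold higher and none lower among the 4 genes with enough UMIs, beside 12% higher and 19.2% lower of 10297 genes. In dendritic cells Retnla, Chi3l3 and Ccl24 were past 2-fold higher and none lower, beside 6.93% and 8.85% of 9371 genes, and in neutrophils Chi3l3 and Ccl24 were past 2-fold higher and none lower among 4 genes with enough UMIs, beside 30.7% and 13.7% of 7050 genes. Since these genes were selected on the same contrast, nothing is read from these counts. The median log2 ratio over genes with at least 100 UMIs was -0.15 in macrophages and 0.21 in neutrophils, so relative to the median gene the macrophage ratios were -2.80 for Mgl2, 0.63 for Ccl24 and 0.62 for Il4ra.

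The macrophage gate held different subsets in the 2 libraries, so the genes were also read within subsets. Resident macrophages, with at least 200 CPM of Timd4, Lyve1 and Folr2 summed and under 200 CPM of Ccr2, numbered 459 in control and 142 in ISO. Ccr2 macrophages, with at least 200 CPM of Ccr2 and under 200 CPM of the resident transcripts, numbered 120 and 1092. Barcodes that reached both limits numbered 55 and 117, and barcodes that reached neither 381 and 240. Reaching a limit depends on depth. Median depths were 11327 UMIs in control and 15106 UMIs in ISO for barcodes with both, and 5747 and 7572 UMIs for barcodes with neither. Ccr2 macrophages were therefore the largest subset of the ISO library and resident macrophages that of the control library.

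In resident macrophages Retnla was 172 CPM (159 to 186) in control against 6.79 CPM (2.73 to 14.0, 7 UMIs) in ISO, a log2 ratio of -4.57. In Ccr2 macrophages it was 927 CPM (874 to 981) in control, 249 CPM without the barcode with 861 UMIs, with 211 of the 312 UMIs then left in 1 more barcode, and 4.79 CPM (3.61 to 6.24) in ISO. A Retnla UMI was seen in 47 of 459 resident, 11 of 120 Ccr2, 14 of 55 double-marked and 8 of 381 unmarked control macrophages. Retnla was thus lower in ISO within resident and within Ccr2 macrophages, and in control the gene was not confined to one of them.

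Chi3l3 was higher in ISO within each of the 4 subsets, at different levels. In resident macrophages it was 3.34 CPM (1.72 to 5.83, 12 UMIs) in control and 234 CPM (205 to 265, 241 UMIs) in ISO, and 86 of the ISO UMIs came from 1 barcode. This ISO level was below the 627 CPM of B cell barcodes, which held myeloid markers as given above, and the thinned share of 7.04% (3.43 to 12.6) overlapped their 15.7% (7.02 to 28.6). In Ccr2 macrophages it was 101 CPM (84.4 to 120) in control against 3415 CPM (3381 to 3449) in ISO, a log2 ratio of 5.07, and 91 of the 128 control UMIs came from 1 barcode. Without the barcode with the most UMIs in each library the control level was 29.6 CPM and the ratio 6.82. Macrophages with neither set of markers had 4.47 CPM (2.31 to 7.80) in control against 2622 CPM (2554 to 2692) in ISO. Among ISO subsets Ccr2 macrophages were highest and resident macrophages lowest, and the intervals of the 4 subsets did not overlap.

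Mgl2 was lower in ISO within each of the 4 subsets. It was 791 CPM (762 to 820) in control against 224 CPM (196 to 255) in ISO resident macrophages, a log2 ratio of -1.82, and 510 CPM (471 to 550) and 47.7 CPM (43.8 to 51.8) in Ccr2 macrophages, a log2 ratio of -3.42. In both libraries resident macrophages had the higher Mgl2 level of these 2 subsets.

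Ccl24 separated the subsets in control. It was 305 CPM (287 to 324) in resident macrophages, 291 CPM (253 to 334) in barcodes with both sets, 48.4 CPM (40.4 to 57.5) in barcodes with neither and 15.8 CPM (9.65 to 24.4, 20 UMIs) in Ccr2 macrophages of the control library. In ISO the same order of subsets gave 407 CPM (369 to 447), 242 CPM (220 to 265), 196 CPM (178 to 216) and 241 CPM (233 to 251). The log2 ratio was 3.90 in Ccr2 macrophages, 2.02 in barcodes with neither set, -0.27 in barcodes with both, and 0.42 in resident macrophages, where it was -0.05 without the barcode with the most UMIs in each library. Il4ra lay between 100 and 125 CPM in the 4 control subsets and between 119 and 184 CPM in the 4 ISO subsets. Its log2 ratio was 0.52 in resident macrophages, 0.53 in Ccr2 macrophages, 0.87 in barcodes with both sets and -0.07 in barcodes with neither.

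**Figure D2:**
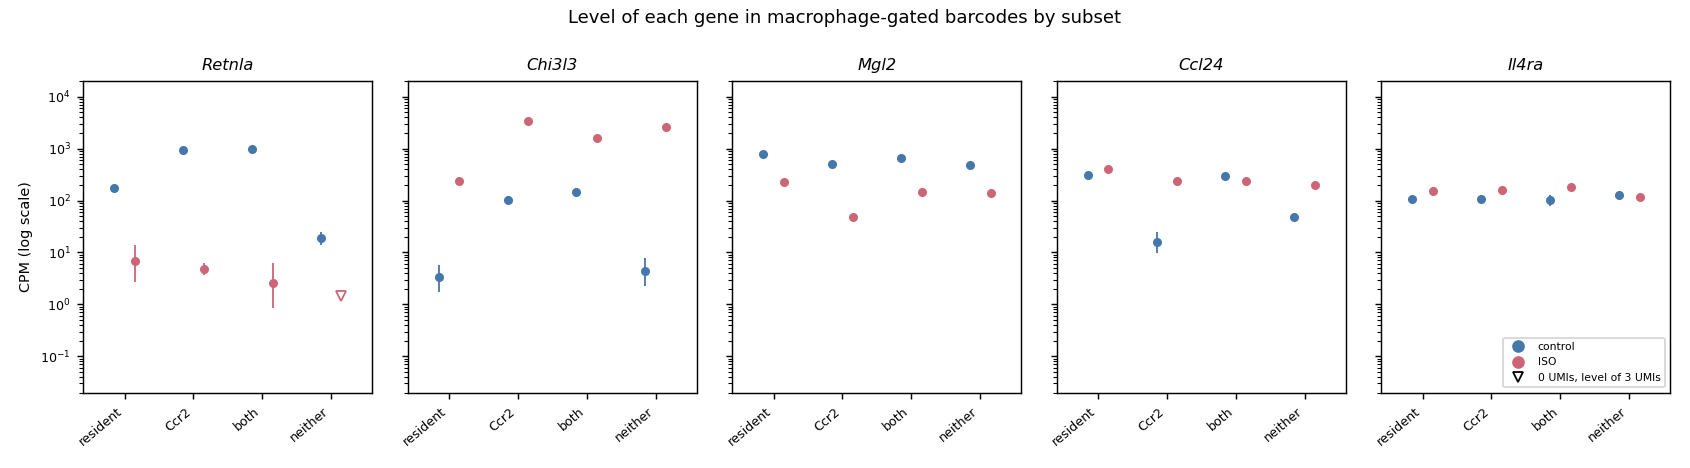
Level of each gene in CPM on a log axis in macrophage barcodes by subset, for the control and the ISO library, with exact 95% Poisson intervals and open triangles for 0 UMIs drawn at the level of 3 UMIs. Ccl24 in Ccr2 macrophages was 15.8 CPM in control and 241 CPM in ISO, and in resident macrophages 305 CPM and 407 CPM.

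Macrophage barcodes were also ordered by their MHC class II transcripts (H2-Aa, H2-Ab1, H2-Eb1 and Cd74) and divided into 5 bins of equal size within each library, 203 control and 318 or 319 ISO barcodes per bin. The scale differed between libraries, since the lowest control bin reached 3879 CPM and the lowest ISO bin 146 CPM. In ISO macrophages Chi3l3 was 4497 CPM (4419 to 4577) in the bin with the fewest MHC class II transcripts, then 4270, 3324 and 2138 CPM, and 1134 CPM (1101 to 1167) in the bin with the most. Mgl2 ran the other way in the same cells, from 17.6 CPM through 22.7, 80.1 and 82.1 CPM to 171 CPM (159 to 185). Ccl24 was lower in each higher bin in ISO, like Chi3l3, from 396 CPM (373 to 420) to 114 CPM (104 to 125). In control it went from 330 CPM (299 to 363) to 76.8 and 83.9 CPM in the highest 2 bins. In control Mgl2 lay between 590 and 711 CPM in all 5 bins, and Il4ra varied little in both libraries. Retnla in control was highest in the bin with the most MHC class II, 1148 CPM (1092 to 1207), but 861 of its 1560 UMIs there came from 1 barcode, and the number of barcodes with a UMI was 15, 21, 12, 15 and 17 of 203 from the lowest to the highest bin.

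**Figure D3:**
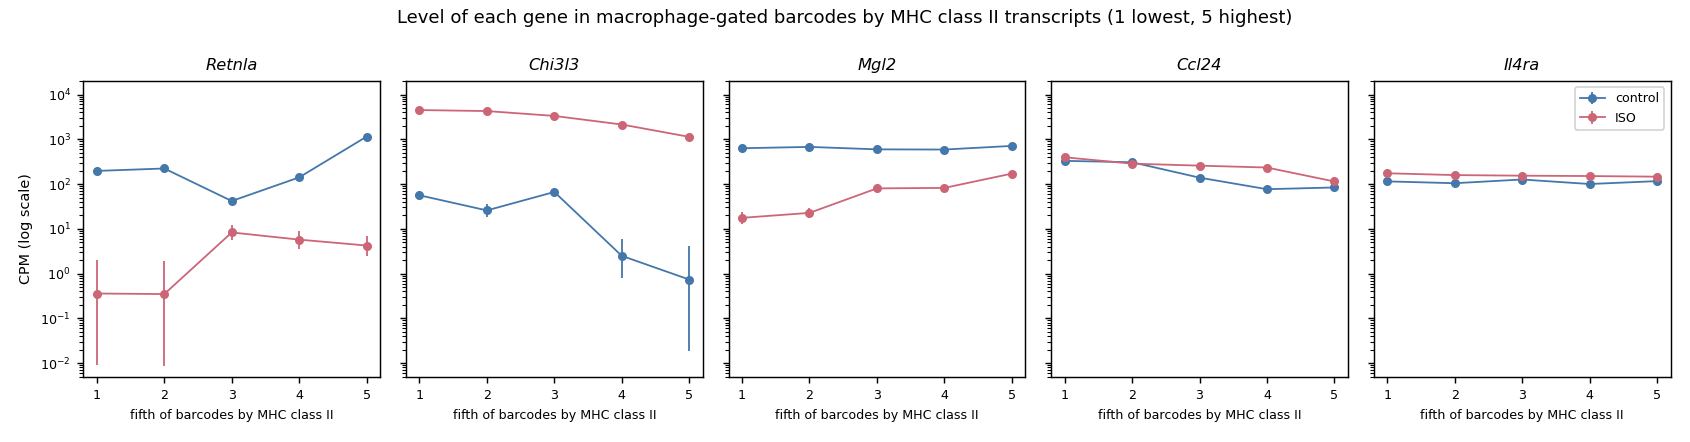
Level of each gene in CPM on a log axis in macrophage barcodes divided into 5 bins by MHC class II transcripts within each library, with exact 95% Poisson intervals. In ISO macrophages Chi3l3 went from 4497 CPM in the lowest bin to 1134 CPM in the highest, and Mgl2 from 17.6 CPM to 171 CPM.

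The genes also differed in which cells carried them together. In ISO macrophages Chi3l3 was 1229 CPM (1196 to 1262) in the 320 barcodes with a Mgl2 UMI and 3490 CPM (3457 to 3524) in the 1271 without, at median depths of 11732 and 8084 UMIs. Ccl24 was 280 CPM (271 to 289) in the 1182 ISO macrophages with a Chi3l3 UMI and 123 CPM (112 to 135) in the 409 without, at median depths of 8629 and 7407 UMIs, while Chi3l3 differed little between barcodes with and without Ccl24 (2878 and 2919 CPM). In control macrophages, Mgl2 was 849 CPM (787 to 914) in the 80 barcodes with a Retnla UMI and 610 CPM (593 to 628) in the 935 without, and Ccl24 was 354 CPM (314 to 397) and 156 CPM (147 to 166). The median depths of these 80 and 935 barcodes were 7996 and 6403 UMIs. Of the 80 Retnla barcodes 4 carried a Chi3l3 UMI, beside 20 of all 1015 control macrophages, and of the 14 ISO macrophages with Retnla 11 did, beside 1182 of all 1591. In control macrophages Chi3l3 was 34.8 CPM (30.6 to 39.4) in the 806 barcodes with a Mgl2 UMI and 4.53 CPM (1.47 to 10.6) in the 209 without. The median depths of these were 6841.5 and 4537 UMIs. Split the other way, Mgl2 in control macrophages was 468 CPM (395 to 551) in the 20 barcodes with a Chi3l3 UMI. It was 641 CPM (623 to 658) in the 995 without, at median depths of 15031.5 and 6439 UMIs. Of the 254 control Chi3l3 UMIs 91 came from the top barcode and 64 from the next, so no direction was read for this pair in control. Mgl2 thus went with less Chi3l3 in ISO macrophages, and Retnla with more Mgl2 and Ccl24 in control macrophages.

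In neutrophil barcodes Chi3l3 had 0 UMIs among 386630 in control and was 3530 CPM (3439 to 3622, 5736 UMIs) in ISO, at least 455-fold higher against a floor of 3 UMIs over the control class. Ccl24 was 7.76 CPM (3 UMIs) in control and 231 CPM (209 to 256, 376 UMIs) in ISO, a log2 ratio of 4.68 (3.34 to 7.18), and 177 of the ISO UMIs came from 1 barcode. The depth differed, with medians of 2732 UMIs in control and 8412 UMIs in ISO, and the neutrophil markers summed to 103316 CPM in control and 38991 CPM in ISO. All 10 macrophage markers were detected in both, at 582 CPM in control and 1373 CPM in ISO, Apoe the most abundant, and all 8 classical monocyte markers, at 2152 and 4450 CPM, Hp the most abundant. Spp1, a macrophage transcript, was 31.0 CPM in control and 4363 CPM in ISO neutrophil barcodes.

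These values changed with the level of neutrophil markers. In ISO barcodes with 5000 to 20000 CPM of neutrophil markers Chi3l3 was 4863 CPM (4714 to 5016), Ccl24 179 CPM (151 to 210) and Spp1 4328 CPM. In the 54 ISO barcodes of the next bin, up to 50000 CPM, Chi3l3 was 2415 CPM, Ccl24 427 CPM (373 to 488) and Spp1 5903 CPM. In the 60 ISO barcodes with at least 50000 CPM Chi3l3 was 1664 CPM (1518 to 1821), with a UMI in 47 of them, Ccl24 was 31.5 CPM (14.4 to 59.9), Mgl2 had 0 UMIs and Spp1 was 1703 CPM (1555 to 1861). In the 97 control barcodes above the same limit Chi3l3 had 0 UMIs, Ccl24 had 3 and Spp1 was 7.03 CPM (0.851 to 25.4). Chi3l3 was thus lower in each bin with more neutrophil markers and Spp1 was lowest in the last, and the part of macrophage or monocyte RNA in the neutrophil values was not tested.

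Wider lists of the program, which include the 5 genes, were read in the same way. Of 52 genes on the lists of cytokines, receptors, signalling, transcription factors, secreted effectors, lectins and surface proteins, and enzymes and chitinase-like proteins, 44 had at least 20 UMIs in macrophages, of which 8 were past 2-fold higher in ISO and 11 past 2-fold lower, beside 7.77% and 20.3% of all measured genes, with a median log2 ratio of 0.02 against -0.26 over all 12594 genes. None of the 3 measured receptors and none of the 7 signalling genes, which include Stat6, passed 2-fold in either direction (medians 0.10 and 0.12). Of the 9 transcription factors none was past 2-fold higher and 3 were lower, Ppargc1b (log2 ratio -1.59), Maf (-1.09) and Irf4 (-1.07), with a median of -0.85. The 1 cytokine measured, Csf1, was higher (2.29).

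Of 11 measured secreted effectors 3 were past 2-fold higher and 3 lower in ISO macrophages (median 0.43). Il1rn, the interleukin-1 receptor antagonist, was 107 CPM in control and 465 CPM in ISO (log2 ratio 2.12), and Ccl17, a T cell chemokine, was 8.84 CPM in control and 33.0 CPM in ISO (1.89). Igf1, a growth factor, was 221 CPM in control and 38.5 CPM in ISO (-2.52), and the chemokine Ccl8 was 10.9 CPM in control and 2.66 CPM in ISO (-2.02). Chi3l3, Il1rn and Ccl17 were thus on the high side of the ISO library, and Retnla, Igf1 and Ccl8 on the low side.

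Of 11 lectins and surface proteins 2 were past 2-fold higher and 5 lower in ISO macrophages (median -0.65). Cdh1, the adhesion protein E-cadherin, had 7 UMIs in control and 161 in ISO (log2 ratio 3.43, 2.45 to 4.86), and the scavenger receptor Msr1 was 104 CPM in control and 453 CPM in ISO (2.13). Beside Mgl2, the low-affinity IgE receptor Fcer2a, which B cells also express, was lower (-2.63), as were the haptoglobin-hemoglobin receptor Cd163 (340 CPM in control and 112 CPM in ISO, -1.61) and the mannose receptor Mrc1 (911 CPM and 318 CPM, -1.52). All 6 B cell markers were detected in the same macrophage barcodes, at a summed 167 CPM in control, Ebf1 the most abundant, and 52.2 CPM in ISO, Ly6d the most abundant, and their part in the Fcer2a value was not tested. Of the last list 2 genes were measured and both were higher, the transglutaminase Tgm2 (35.7 CPM and 264 CPM, 2.88) and the chitinase-like Chi3l1 (2.33, 1.24 to 3.94). In the resistin family Retnlg was 5.33 CPM in control and 19.1 CPM in ISO macrophages (1.83), opposite to Retnla, and is itself one of the neutrophil markers, which summed to 180 CPM in control and 501 CPM in ISO macrophages, S100a9 the most abundant in control and S100a8 in ISO, with Ly6g at 0 in both. Of 12 measured genes of classical activation, for comparison, 5 were past 2-fold higher and 2 lower in ISO macrophages (median 0.65), with Il12b (3.24), Ptgs2 (2.42), Cd80 (1.46) and Il1b (1.42) higher and Cxcl9 (-4.53) and Irf1 (-1.09) lower.

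The same lists were read in other classes. In classical monocytes 13 of 38 measured genes were past 2-fold higher and 6 lower (median 0.09, against -0.22 over all genes), beside 12% and 19.2% of all measured genes. Among 8 measured secreted effectors 6 were higher and none lower (median 3.19, or 2.24 with the 3 genes without a control UMI at their floor of 3 UMIs). The class held 567613 UMIs in control and 10087173 in ISO, so genes high in ISO reached the limit of 20 UMIs more readily. Il4 (13 control and 1 ISO UMIs), Alox15 (10 and 0), Igf1 (4 and 3) and Retnla (2 and 9) were left out by it. Nothing is therefore read from the balance of these counts. Ccl17 and Il10 had 0 control UMIs in monocytes, and were at least 13.4-fold and 6.06-fold higher in ISO. The dendritic cell gate held different subsets in the 2 libraries, with 25 control and 21 ISO barcodes of type 1, 39 and 165 of type 2, 4 and 49 migratory, 18 and 47 plasmacytoid and 20 and 82 others, and the part of this in the dendritic cell values was not tested. In dendritic cells 16 of 37 measured genes were past 2-fold higher and 1 lower (median 0.67, against -0.04), beside 6.93% and 8.85% of all genes, with Ccl17 at 8.84 CPM in control and 712 CPM in ISO (log2 ratio 6.27, 5.49 to 7.34), Msr1 higher (3.54, 2.31 to 5.60) and Cd36 lower (-2.34). In neutrophils 15 of 32 were higher and 1, Clec7a, lower (-1.23), with a median of 0.82 against 0.29 over all genes, of which 30.7% were higher and 13.7% lower, and the macrophage and monocyte markers given above were in the same barcodes. The class held 386630 UMIs in control and 1625123 in ISO, and 5 of the measured genes had 0 control UMIs. Igf1 (6 control and 2 ISO UMIs) and Cd163 (8 and 7) fell below the limit, as did Fcer2a (15 and 3) in dendritic cells. Nothing is read from the balance of higher and lower genes in these 2 classes either.

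Over 18 sums of a class within a library, each of at least 20 barcodes, the pattern of each gene was compared with that of 10296 genes by Pearson's correlation of log2 CPM, as a description. The sums share libraries and differ in depth. Nearest to Retnla were Ch25h (r = 0.83), Pla2g2d (0.79) and 2610203C22Rik (0.78), where the sum of ISO dendritic cells rested on the barcode with 298 Retnla UMIs. Without that barcode, a setting chosen after seeing the data, Pla2g2d (0.95), Col14a1 (0.94) and Chp2 (0.94) were nearest to Retnla, and for the other genes only Vcan below gave way, to Sod2 (0.95). Nearest to Mgl2 were Tlcd2 (0.85), Slamf9 (0.83) and Mras (0.83). Nearest to Chi3l3 were F10 (0.96), Fn1 (0.96) and Vcan (0.95), of which F10 and Vcan are markers of the classical monocyte gate. Nearest to Ccl24 were Kcnk13 (0.97), Gpr84 (0.97) and Scamp1 (0.95), and nearest to Il4ra were Slc16a1 (0.73), Pus7 (0.70) and Pde4d (0.70). Among the 5 genes themselves r was highest for Chi3l3 with Ccl24 (0.77) and lowest for Retnla with Chi3l3 (-0.20, and -0.26 without that barcode).

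The genes lie on different chromosomes of the GRCm38 (mm10) assembly. In the GENCODE annotation of that build Retnla is at chr16:48842551-48844461 on the plus strand, 23659 bases from Retnlb and 28160 from Retnlg, and Chi3l3 (Chil3) is at chr3:106147554-106167564 on the minus strand, near Chia1 and Chil4. Mgl2 is at chr11:70130329-70137550 on the plus strand, 18647 bases from its relative Clec10a, Ccl24 is at chr5:135569937-135573049 on the minus strand, and Il4ra is at chr7:125552120-125579474 on the plus strand, overlapped by Gm44876 on the other strand. Of the 50-base windows in the last 600 bases of Chil3 transcripts 16.9% also occur in Chil4, and of those of Mgl2 8.01% occur in Clec10a, so that some reads could belong to either gene, while no window of Retnla occurs in Retnlg, Retnlb or Retn. Chi3l4 (Chil4) had 0 UMIs in macrophages of both libraries, and Clec10a was 60.9 CPM in control and 38.8 CPM in ISO macrophages. In dendritic cells Clec10a was 129 CPM in control and 287 CPM in ISO, past 2-fold higher, while Mgl2 was not.

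The 250 bases before the start of 4 of the 5 genes, from RefSeq on GRCm38.p6, were searched on both strands for TTC and GAA with 4 bases between them (the STAT6-type spacing), TTCNNNGAA (the spacing of other STAT proteins) and the C/EBP-type half-site pair TTGCNNAA. Retnla and Chi3l3, the genes with the largest differences in opposite directions, are shown with the matches in capitals, without bases of annotated exons. Retnla holds TTC and GAA 4 bases apart at bases 145 to 136 before its start and TTGCNNAA at bases 134 to 127, 1 base apart, and Chi3l3 holds TTCNNNGAA at bases 172 to 164. Positions count from the RefSeq start, and for Retnla 58 exon bases between the end of the printed run and that start are left out.
Retnla, chr16:48842359-48842550, plus strand: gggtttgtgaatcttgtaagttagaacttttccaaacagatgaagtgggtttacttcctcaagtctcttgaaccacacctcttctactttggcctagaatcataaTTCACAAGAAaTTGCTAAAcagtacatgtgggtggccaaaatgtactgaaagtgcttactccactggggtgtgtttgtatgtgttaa
Chi3l3, chr3:106167565-106167814, minus strand: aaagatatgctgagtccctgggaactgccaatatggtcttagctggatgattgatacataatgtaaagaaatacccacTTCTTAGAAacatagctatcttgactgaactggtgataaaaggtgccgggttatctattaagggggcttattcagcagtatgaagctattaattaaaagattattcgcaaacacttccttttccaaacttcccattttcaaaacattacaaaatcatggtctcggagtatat
No match of the 3 motifs was found in these windows of Mgl2 and Il4ra. Among all 32851 promoter windows of the same length 5.85% hold the spacing of 4 bases, 7.02% hold TTCNNNGAA and 9.56% hold TTGCNNAA, and a match of letters does not show that a factor binds there.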

How the data were processed

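Per the submitters' processing notes, reads were demultiplexed with bcl2fastq 2.19.1.403 and processed with UMI-tools 1.0.0, STAR 2.7.3a and featureCounts 1.6.4 of Subread on mm10. The annotation and the strand setting were not given in the sources used here. The deposited values are raw counts of UMIs per gene and barcode. The genes and lists were chosen with earlier results of these data known.

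Barcodes with over 500 and under 6000 genes and under 25% mitochondrial UMIs were kept. A class needed at least 2 of its markers detected and a summed level of 5000 CPM for macrophages (with at least 2 times the monocyte level), 1500 for classical and 1000 for nonclassical monocytes, 500 for dendritic cells and 5000 for neutrophils. No doublet caller was run. Barcodes with markers of 2 lineages were set apart, and the 5% of highest depth were left out in an alternative. Lymphoid and neutrophil barcodes with at least 2500 CPM of macrophage markers were among those set apart. The dendritic cell and nonclassical monocyte gates required under 2500 CPM of them. Macrophage marker sums in these classes were therefore capped by the gate, while classical monocyte markers set no barcode apart. UMIs were summed per class and library into CPM whose 95% intervals are exact Poisson. A log2 ratio divides ISO by control after a pseudocount of 0.5, with exact conditional 95% intervals. Shares used cells thinned to 1000 UMIs, which left out 14 control barcodes and 0 ISO barcodes, with exact Clopper-Pearson intervals. A share of 0 was instead given a limit of 3 barcodes of its class. Called means past 2-fold among genes with at least 20 UMIs, and no test was run. Named genes were the 5 genes, list genes past 2-fold (at most 4 per direction and role, in order of size) and the 3 most correlated genes. Clec10a and Chi3l4 were named as near copies, and Spp1 and single barcodes after their values were seen. Python 3, numpy, scipy, pandas and matplotlib were used, and the ratio code was tested on simulated data. Alternatives changed gates, cell filters, weighting, depth, scaling, totals, free RNA and the pseudocount. A listed gene is not reported here and was left out of the counts.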

Additional observations from a re-analysis of the deposited data

Results flagged for a closer look

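Retnla and Mgl2 had log2 ratios of ISO over control in opposite directions in different classes, with counting intervals on both sides of 0, and the difference between classes was not tested. For Retnla the ratio was -6.23 in macrophages and 5.53 in dendritic cells, where 298 of 299 ISO UMIs came from 1 barcode. For Mgl2 it was -2.95 in macrophages and -0.75 in neutrophils, 1.43 in classical monocytes, where control had 3 UMIs, and 0.43 in dendritic cells. Outside macrophages these Mgl2 ratios turned sign under other settings, to 0.54 in neutrophils without the top barcode, -1.88 in classical monocytes and -0.03 in dendritic cells with gate limits doubled, and in type 2 dendritic cells the ratio was -0.54.

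Barcodes outside the cell filters, 286 in control and 77 in ISO, were left out of the levels in the report and used only in the setting without cell filters. In these Chi3l3 was 1588 CPM in ISO (95% Poisson interval 1543 to 1633) and 29.7 CPM in control, Ccl24 196 CPM (181 to 212) and 86.7 CPM, and Il4ra 178 CPM (163 to 193) and 128 CPM. Retnla was 36.7 CPM (30.2 to 44.2) in ISO and 382 CPM (366 to 399) in control in the same barcodes, and Mgl2 60.3 CPM (51.9 to 69.7) and 372 CPM (357 to 388).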

How the results depend on the processing

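Recomputed under other settings, 3 of them chosen after seeing the data, the macrophage log2 ratios of all 5 genes kept their sign wherever a value could be had. For Retnla (-6.23 as reported) the ratio was -5.13 with gate limits doubled, -4.73 with barcodes of 2 lineages kept, -5.14 without cell filters and -5.65 with cells thinned. With the B cell level subtracted, which in ISO was 1 UMI (3.65 CPM), the ratio was -9.52. For Chi3l3 (6.56) it was 6.89 with barcodes of 2 lineages kept, 7.63 with cells weighted equally, 8.44 with cells thinned and 7.19 without the top barcode of each library. For Mgl2 (-2.95) it was -2.46 and -3.04 with limits doubled and halved, -2.37 with 2 lineages kept, -2.80 with median ratio scaling, -3.05 with mitochondrial genes and Gm26924 out of the totals and -3.15 without the deepest 5% of barcodes. For Ccl24 (0.48) the same settings gave 0.36, 0.62, 0.78, 0.63, 0.38 and 0.35. For Il4ra (0.47) it was 0.21 with 2 lineages kept, 0.36 with cells weighted equally and 0.62 with median ratio scaling. In the 5 classes recomputed 4 of 335 values turned sign from a ratio past 2-fold. Retnla in dendritic cells was -1.44 without the deepest 5% of barcodes and -1.37 without the top barcode, where 1 barcode held 298 of the 299 ISO UMIs. Mgl2 in classical monocytes was -1.88 with limits doubled and -0.52 with cells thinned, from 3 control UMIs as reported. Among ratios not past 2-fold further values turned sign: 4 for Retnla in neutrophils, 2 for Mgl2 in dendritic cells (-0.03 with limits doubled, and -0.73 with subtraction of an ISO B cell level that rests on 2 barcodes and is no background for Mgl2), 5 for Mgl2 in neutrophils, and for Il4ra 1 each in classical monocytes (-0.25 with cells thinned), dendritic cells (-0.53 with cells thinned) and neutrophils (-0.02 with median ratio scaling). Subtraction of the B cell level gave no value where that level was the higher, as for Mgl2 in macrophages, and equal weights gave none where a library had 0 UMIs. Counted over genes with at least 1 UMI, not 20, the share past 2-fold lower was 32.0% in macrophages (20.3% as reported), 40.9% in classical monocytes (19.2%) and 19.8% in dendritic cells (8.85%, and 4.86% over genes with at least 100 UMIs), and the share higher in classical monocytes was 7.55% (12%). No paired analysis was possible because each group has 1 library.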

Other observations

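Chi3l3 was also seen in lymphoid gates of the ISO library. It was 1485 CPM (95% Poisson interval 1389 to 1587) in 60 T cell barcodes, 788 CPM (715 to 867) in 105 ILC2 barcodes, 627 CPM (537 to 728) in 51 B cell barcodes and 34.1 CPM (11.1 to 79.6) in 28 natural killer cell barcodes, against 0, 0, 46 and 1 UMIs in the same gates of the control library. In the T cell barcodes the 10 macrophage markers summed to 296 CPM in control, where Mertk was at 0, and 1270 CPM in ISO. All were detected in ISO, and Apoe was the most abundant in both. Classical monocyte markers there summed to 614 CPM in control, where Vcan was at 0, and 2189 CPM in ISO. Neutrophil markers were at 63.3 and 208 CPM. In ILC2 barcodes macrophage markers were at 187 CPM in control and 726 CPM in ISO, and neutrophil markers at 24.9 and 349 CPM. Classical monocyte markers in ILC2 barcodes were at 1123 and 1148 CPM, Ccr2 the most abundant in both. The part of all these transcripts was not tested. Ccl24 in the ISO T cell barcodes was 225 CPM (188 to 267), and in control it had 0 UMIs.

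Barcodes that carried markers of 2 lineages held 36.3% of the kept Retnla UMIs and 55.9% of the kept Mgl2 UMIs of the control library, and 17.4% of the kept Chi3l3 UMIs of the ISO library. In these barcodes Retnla was 78.4 CPM (74.5 to 82.5) in control against 13.9 CPM (11.8 to 16.3) in ISO, of which 78 of 156 UMIs came from 1 barcode. Chi3l3 was 18.1 CPM (16.3 to 20.1) in control against 2461 CPM (2432 to 2490) in ISO.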
